A study of Triticum turgidum subsp. durum with 12 samples.

Results

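The genes described here are 73 wheat genes whose transcripts were present in wild-type leaves and far less abundant in the leaves of plants lacking either of a pair of light receptors, phytochrome B or phytochrome C. A gene was taken as a member if it was a high confidence gene model, if its mean level in the wild type (WT) was at least 2 TPM, a unit scaled to gene length and library size, if its mean in *phyB*-null and its mean in *phyC*-null were each at most 0.25 of the WT mean, and if its lowest WT library lay above the highest of the 8 mutant libraries. Of 190459 gene models with a TPM value, 75769 were high confidence models, and 24777 of these had a WT mean of at least 2 TPM. Of these WT-expressed models, 731 had a *phyB*-null mean at or below 0.25 of WT, 223 had such a *phyC*-null mean, and 165 had both. Requiring that no mutant library reach the lowest WT library left 93 models. From these, 16 genes that the study's own tables of flowering and other selected genes name and 4 genes in the first part of chromosome 2A were set aside. The 73 that remained were 0.295% of the WT-expressed models. The members were thus chosen by their WT and mutant TPM levels, so the loss itself is given as a description and carries no test. The direct comparison of *phyB*-null with *phyC*-null was not part of the rule and was tested.

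The libraries came from Kronos, a tetraploid durum wheat with A and B genomes whose plants all carried the *Ppd-A1a* allele. WT Kronos, *phyB*-null and *phyC*-null had 4 biological replicates each. The null lines combined mutations made with ethyl methanesulfonate (EMS) in the A and B copies of the receptor gene, were backcrossed to Kronos and are each 1 line, so other EMS mutations in a line cannot be told apart from the loss of its receptor. All plants grew for 8 weeks in short days (SD) of 8 h light and 16 h dark at 20 °C and 18 °C, and 1 WT parent served both mutants, so the 2 comparisons with WT share their control libraries. One label calls the tissue the third leaf, while the paper and another label name the youngest fully expanded leaf. At harvest the apices of WT plants had begun spike development and those of the mutants were vegetative, so genotype and developmental stage cannot be told apart in these libraries.

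Phytochromes are red and far-red light receptors. Red light turns them into an active form that moves into the nucleus, where it changes the stability and activity of transcription factors, and far-red light or a long night returns them to the inactive form. In the temperate grasses PHYB and PHYC are both needed for timely flowering. They act ahead of PPD1, a pseudo-response regulator, and of *FT* genes, which encode the mobile flowering signal made in leaves. MADS-box genes related to *APETALA1* and *FRUITFULL* act further along that pathway and promote the move from leaf to spike formation. Light signals also reach defence and metabolic genes through transcription factors of the bZIP, bHLH and WRKY families.

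Library totals ran from 37365465 to 58944135 counts. Summed levels of 6 leaf marker genes for the small Rubisco chain and chlorophyll a-b binding proteins overlapped among the genotypes, with sums of 8856 to 16328 TPM (WT), 10128 to 18335 TPM (*phyB*-null) and 7097 to 27603 TPM (*phyC*-null). These sums were carried by 4 Rubisco genes. The other 2, of the chlorophyll a-b binding proteins, averaged less in *phyB*-null. TraesCS1B01G433300 ranged over the WT libraries from 136 to 398 TPM, the *phyB*-null libraries from 14.8 to 113, with no overlap, and the *phyC*-null libraries from 42.7 to 852. For TraesCS1A01G403800 these ranges were 110 to 384, 7.80 to 117 and 41.6 to 1275 TPM, so its highest *phyB*-null library lay just above its lowest WT library. Another gene of this kind on the list, TraesCS1B01G388300, is itself a member and was left out of the sums. Their part in the results was not tested. Summed levels of 8 *knotted-1* genes, taken as marks of the shoot apex, also overlapped among the genotypes, at 150 to 203, 132 to 195 and 130 to 246 TPM. These sums were carried by TraesCS7A01G511800, TraesCS7B01G423100, TraesCS6B01G173900 and TraesCS6A01G145500, with WT means of 87.0, 48.2, 28.3 and 22.2 TPM. Each of the other *knotted-1* genes averaged at most 0.191 TPM in WT, near the floor. The sums therefore do not show whether apex content was equal among the genotypes. The labels were not checked on the mutated genes, whose identifiers the tables used here do not give. In bulk leaf RNA, fewer cells of a type and less RNA per cell cannot be told apart.

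Chromosomes of the A genome held 41 members, 56.2% against 50.2% of the WT-expressed models, and those of the B genome 27, 36.99% against 48.9%. Another 5 lay on sequence not assigned to a chromosome, which was 6.85% of the members against 0.868% of the WT-expressed models. Chromosome 3A had the most members with 9, followed by 5A with 8 and 5B with 7. The study's tables described the product of 23 members and gave no description for the other 50, and since those tables were cut short and sorted by significance, descriptions are more common among strongly changed genes. The described members comprised 4 transcription factors, 3 oxidoreductases, 3 DnaJ chaperones, a disease resistance protein, a receptor subunit, a sulfotransferase, a transporter and 9 others.

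Levels of most members in WT were low to moderate. The WT mean was 5.93 TPM in the median and ran from 2.02 to 735 TPM, with 33 members at 2 to 5 TPM, 21 at 5 to 20, 15 at 20 to 100 and 4 above. In the median, 10.9% of the WT level was left in *phyB*-null and 17.7% in *phyC*-null. Ratios of the WT mean to the *phyB*-null mean had a median of 9.16, and those to the *phyC*-null mean 5.64. Among members with more than 3 reads in the mutant concerned they reached 149 for *phyB*-null and 151 for *phyC*-null. Both mutants were at least 10-fold below WT in 10 members and at least 20-fold below in 5. By mean level, 59 of the 73 were lowest in *phyB*-null, with *phyC*-null between it and WT, while a *phyB*-null mean below the *phyC*-null mean was found in 53.2% of the WT-expressed models. The rule capped both mutant means of the members, so these sets are unlike.

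**Figure D1:**
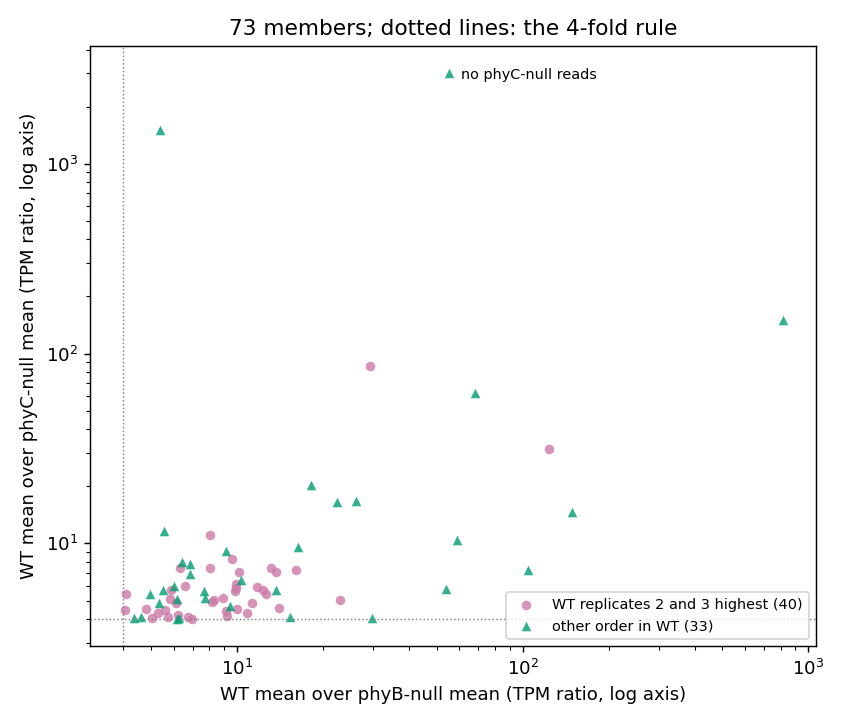
Ratio of the WT mean to the *phyB*-null mean (x axis) and to the *phyC*-null mean (y axis) in TPM for each of the 73 members, both on log axes, with dotted lines at the 4-fold limit of the rule. Circles are the 40 members whose WT replicates 2 and 3 were highest and triangles the other 33, most points lie under 20-fold on both axes, and ratios of members with at most 3 reads in a mutant (5 in *phyB*-null, 3 in *phyC*-null) are imprecise.

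The most abundant members were a pair of genes for basic leucine zipper (bZIP) transcription factors, both described by sequence search as like CPRF2, a factor from parsley that binds light-regulated promoters. TraesCS5B01G059200 on chromosome 5B stood at 923, 697, 614 and 707 TPM in WT replicates 1 to 4. In *phyB*-null replicates 1 to 4 it was at 4.34, 2.88, 5.10 and 7.42 TPM, and in *phyC*-null at 56.5, 60.5, 44.1 and 38.8 TPM. The 3 genotypes did not overlap, and the WT mean was 149 times the *phyB*-null mean and 14.7 times the *phyC*-null mean.

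TraesCS5A01G057500, the bZIP gene on chromosome 5A, showed the same order of genotypes. Its WT libraries were at 393, 301, 288 and 323 TPM, its *phyB*-null libraries at 5.17, 3.16, 4.66 and 9.24, and its *phyC*-null libraries at 34.1, 41.3, 27.8 and 22.6. Again no genotype overlapped another, with ratios of 58.8 for *phyB*-null and 10.4 for *phyC*-null. In both genes *phyB*-null replicate 4 was the highest of its genotype. Reads that match near-identical gene copies equally well were not counted by the authors, so values of closely similar genes such as these are uncertain to that extent.

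The third transcription factor by level, TraesCS2B01G200800 on chromosome 2B, is a MADS-box gene that the study's tables list as TaAP1-B2. Genes of this kind respond to the floral transition. The WT libraries were at 28.7, 11.9, 6.94 and 27.6 TPM, so replicates 1 and 4 were well above replicates 2 and 3. The *phyB*-null libraries held 3 reads in all, against 2228 in WT, a ratio of library-scaled counts of 748 (95% exact interval 256 to 3630, counting error only). The *phyC*-null libraries were at 0.209, 0.155, 0.0223 and 0.111 TPM, 151-fold below WT in the mean, and lay far below every WT library.

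The remaining transcription factor, TraesCS3A01G209800, belongs to the WRKY family, whose members bind W-box sequences and are best known from defence responses. It is named here for its class after its values were seen. WT replicates 1 to 4 were at 4.57, 17.2, 25.2 and 6.64 TPM, *phyB*-null at 4.40, 0.145, 0.323 and 1.15, and *phyC*-null at 3.96, 4.45, 1.25 and 0.708. WT replicate 1 exceeded *phyC*-null replicate 2 by a factor of only 1.03, so the genotypes barely separated in this gene.

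**Figure D2:**
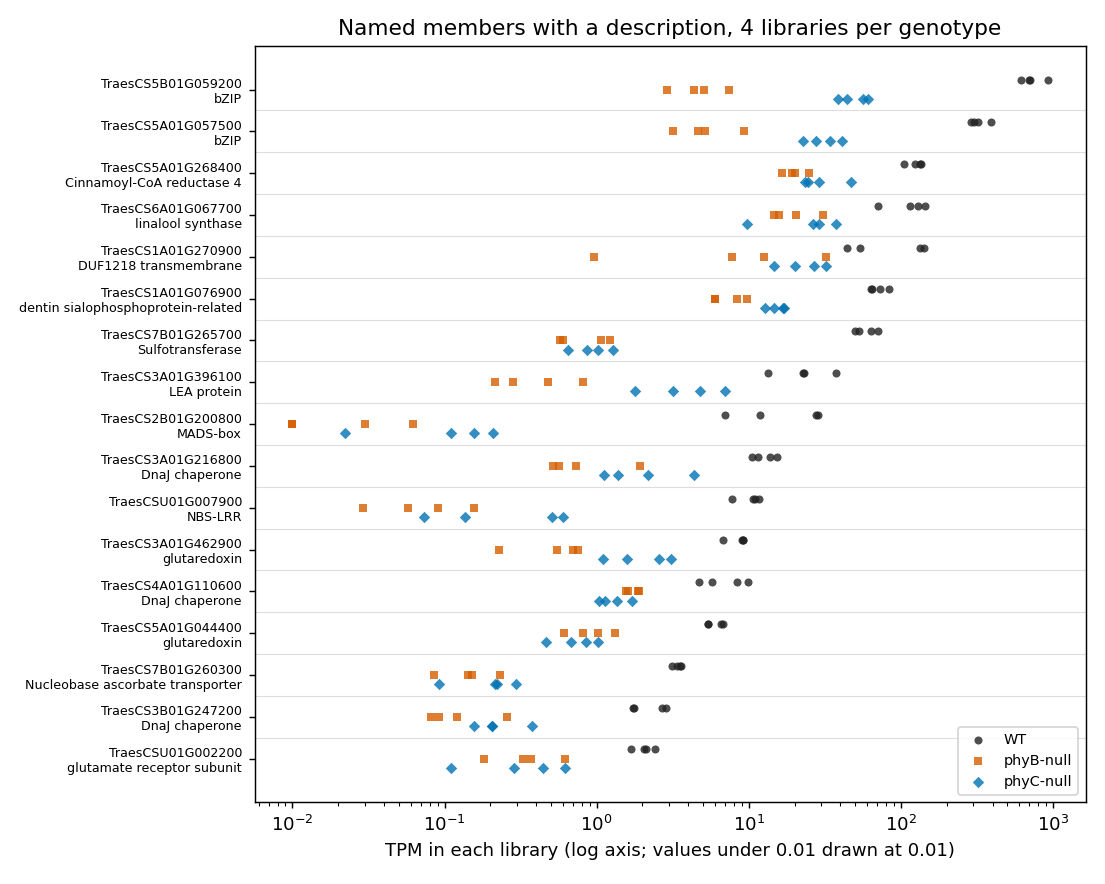
TPM in each of the 12 libraries (x axis, log scale) for the named members with a description (rows, ordered by WT mean), with circles for WT, squares for *phyB*-null and diamonds for *phyC*-null. WT lies to the right of both mutants in every row, as the rule requires, and *phyB*-null lies left of *phyC*-null without overlap in both bZIP genes, the late embryogenesis abundant (LEA) gene TraesCS3A01G396100, the glutaredoxin TraesCS3A01G462900 and the dentin sialophosphoprotein-related gene.

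Among the enzymes, the sulfotransferase gene TraesCS7B01G265700 had the widest gap of all 73 members between the lowest WT and the highest mutant library. Enzymes of this kind move a sulfonate group onto small molecules or peptides. WT libraries were at 53.2, 63.2, 49.6 and 70.3 TPM, *phyB*-null libraries at 0.575, 1.07, 1.23 and 0.597, and *phyC*-null libraries at 1.03, 0.862, 0.643 and 1.29. The lowest WT library was 38.5 times the highest mutant library, and the ratio of means was 68.1 for *phyB*-null and 61.9 for *phyC*-null. The mutant ranges overlapped each other.

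The linalool synthase gene TraesCS6A01G067700, whose enzyme class makes a volatile monoterpene alcohol, and the cinnamoyl-CoA reductase 4 gene TraesCS5A01G268400, an enzyme class at the entry to lignin building blocks, were abundant in WT and less deeply reduced. Linalool synthase transcripts averaged 115 ± 31.5 TPM in WT (SD, n = 4), 20.5 ± 7.36 in *phyB*-null and 25.7 ± 11.7 in *phyC*-null. Cinnamoyl-CoA reductase 4 averaged 124 ± 14.0, 20.2 ± 3.56 and 31.0 ± 11.0 TPM. A sequence search in the study's tables describes the latter as dihydroflavonol 4-reductase, an enzyme of the anthocyanin pathway, so its substrate is uncertain.

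Glutaredoxins use glutathione to reduce disulfide bonds in other proteins, and 2 of them were members. TraesCS3A01G462900 was at 9.23, 9.08, 6.81 and 9.19 TPM in WT, 0.752, 0.552, 0.703 and 0.228 in *phyB*-null, and 2.57, 1.10, 1.58 and 3.09 in *phyC*-null. All *phyB*-null libraries lay below all *phyC*-null libraries. In TraesCS5A01G044400 the mutants overlapped, at 0.942 ± 0.298 TPM in *phyB*-null and 0.753 ± 0.239 in *phyC*-null against 6.04 ± 0.742 in WT (SD, n = 4).

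DnaJ proteins are partners of the Hsp70 chaperones, and their 3 genes differed in depth of loss. TraesCS3A01G216800 averaged 12.8 TPM in WT, 0.934 in *phyB*-null and 2.26 in *phyC*-null. TraesCS3B01G247200 had 2.27 TPM in WT and ratios of 16.4 and 9.62. TraesCS4A01G110600 averaged 7.13, 1.74 and 1.31 TPM, the only one of the 3 with its lower mean in *phyC*-null.

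The putative NBS-LRR disease resistance gene TraesCSU01G007900, on unassigned sequence, resembles RPM1, a protein that detects bacterial effectors in Arabidopsis. It was at 10.7, 10.9, 11.7 and 7.78 TPM in WT, at 0.155, 0.0290, 0.0574 and 0.0907 in *phyB*-null, and at 0.598, 0.507, 0.0728 and 0.135 in *phyC*-null. WT lay at least 13.0 times above every mutant library. Resistance genes come in families of near copies, for which unique mapping can split or lose reads.

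The nucleobase ascorbate transporter gene TraesCS7B01G260300 was even among the WT libraries, at 3.15, 3.53, 3.37 and 3.61 TPM. The mutants had means of 0.153 ± 0.0597 TPM (*phyB*-null) and 0.206 ± 0.0843 TPM (*phyC*-null), each as SD with n = 4. The gene TraesCSU01G002200, described after an animal NMDA-type glutamate receptor subunit, had the lowest WT mean of the described members, at 2.07 ± 0.305 TPM, with 0.375 ± 0.183 TPM left when *phyB* was mutated and 0.366 ± 0.219 when *phyC* was. The dentin sialophosphoprotein-related gene TraesCS1A01G076900, whose description comes from an animal protein, had 83.8, 73.2, 64.4 and 63.6 TPM in WT, 8.33, 6.02, 5.99 and 9.70 in *phyB*-null, and 12.8, 16.9, 16.8 and 14.6 in *phyC*-null, with no overlap between genotypes.

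A further member with a clear signalling role, chosen after its values were seen, was TraesCS3A01G275400, a histidine phosphotransfer protein. Such proteins pass phosphate from hormone-sensing histidine kinases to response regulators, as in cytokinin signalling. The WT libraries were at 12.2, 12.6, 19.0 and 14.8 TPM, and the mutants at 0.809 ± 0.194 TPM in *phyB*-null and 0.725 ± 0.295 in *phyC*-null (SD, n = 4). The lowest WT library was 11.0 times the highest mutant library. The mutants overlapped.

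Some members with no description had very few reads in one mutant or in both. TraesCS7B01G267700 had 51 reads over the WT libraries, 1 over *phyB*-null and none over *phyC*-null, so WT was at least 20.0-fold higher than *phyC*-null, taking 3 counts over the 4 libraries as the floor. TraesCS5A01G016900 had 81 reads in WT, 3 in *phyB*-null and 1 in *phyC*-null. TraesCS7A01G300900, chosen after its values were seen, had 85 in WT, 3 in *phyB*-null and 6 in *phyC*-null. TraesCS2A01G364900, chosen in the same way, was low in this sense in *phyC*-null alone. It was even in WT at 11.3, 11.2, 10.9 and 9.89 TPM and had 1 read over all *phyC*-null libraries, against 1240 in WT. In *phyB*-null it stood at 0.270, 0.873, 6.75 and 0.124 TPM, so replicate 3 alone held most of its transcripts.

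Some members lay next to each other along the order of identifiers, with at most 5 identifiers between neighbours. There were 3 runs of 3 members, on 5A, 5B and 6B, and 1 pair on 6A. On 5A, TraesCS5A01G044100 averaged 16.4 TPM in WT, against 2.14 with *phyB* mutated and 2.92 with *phyC* mutated, the glutaredoxin TraesCS5A01G044400 lay 3 identifiers further on, and TraesCS5A01G045000 averaged 4.28, 0.925 and 1.05 TPM. Genes between them were mixed. TraesCS5A01G044500 and TraesCS5A01G044600 kept 105% of the WT level in *phyB*-null and 92.6% and 96.5% in *phyC*-null. TraesCS5A01G044200 and TraesCS5A01G044800 were also low, with 26.9% and 25.0% left in *phyB*-null and 19.3% and 29.0% in *phyC*-null, and each missed a condition of the rule.

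The run on 5B was abundant and even in WT. TraesCS5B01G048600 was at 57.5, 50.5, 44.1 and 53.1 TPM in WT, at 2.66, 7.09, 7.96 and 19.4 in *phyB*-null, and at 5.27, 2.31, 4.91 and 5.17 in *phyC*-null. TraesCS5B01G049100 averaged 33.3 ± 4.69 TPM in WT, 4.85 ± 4.33 in *phyB*-null and 4.83 ± 1.71 in *phyC*-null, and its neighbour TraesCS5B01G049200 averaged 25.1 ± 1.41, 4.17 ± 3.27 and 4.20 ± 1.53. In all 3 genes *phyB*-null replicate 4 was the highest mutant library, at 19.4, 11.3 and 9.02 TPM. Within the same stretch TraesCS5B01G048900 kept 40.1% and 34.7% of its 98.4 TPM, while TraesCS5B01G048700 kept 80.9% and 88.5%.

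On 6B the members TraesCS6B01G398100, TraesCS6B01G398200 and TraesCS6B01G398300 have consecutive identifiers and averaged 5.31, 5.93 and 3.31 TPM in WT. Their *phyB*-null means were 0.808, 0.596 and 0.523 TPM and their *phyC*-null means 0.893, 1.02 and 0.449. The genes on either side, TraesCS6B01G398000 and TraesCS6B01G398400, were under 2 TPM in WT. On 6A, TraesCS6A01G116800 and TraesCS6A01G116900 had WT means of 4.11 and 9.56 TPM, *phyB*-null means of 0.299 and 2.36 and *phyC*-null means of 0.582 and 2.14, next to TraesCS6A01G116700, which was at 21.5 TPM in WT, 44.4 in *phyB*-null and 20.5 in *phyC*-null. Adjacent genes can be tandem copies, for which uniquely mapped reads understate or mix levels, and no source used here says whether these are.

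**Figure D3:**
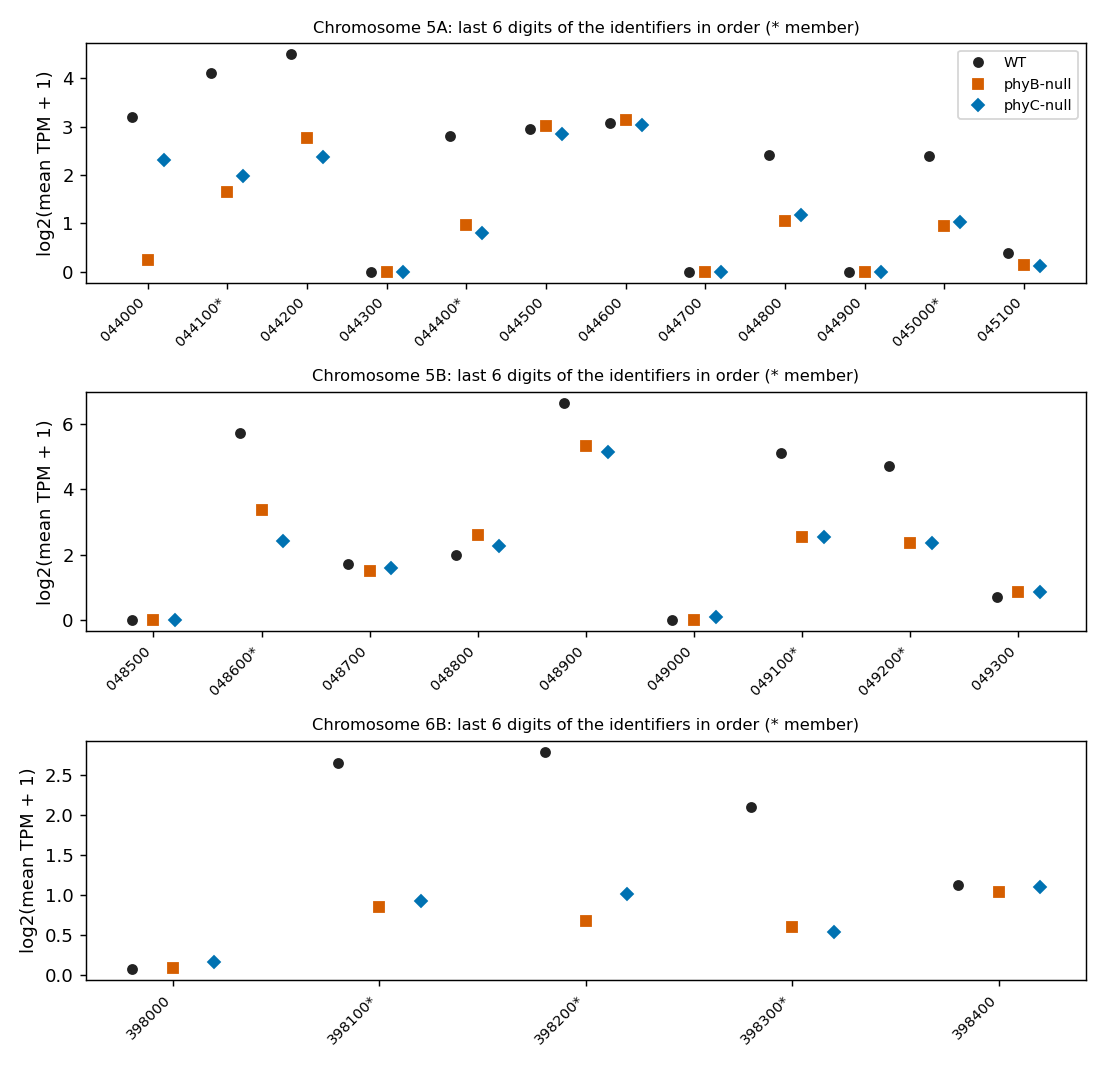
Mean level of each high confidence model in the 3 runs of neighbouring members, as log2(mean TPM + 1) on the y axis, in the order of their identifiers on the x axis, with stars on members and circles, squares and diamonds for WT, *phyB*-null and *phyC*-null. Members and some neighbours drop in both mutants, while TraesCS5A01G044500, TraesCS5A01G044600 and TraesCS5B01G048700 between them stay close to WT.

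The WT replicates varied more in these genes than in most. The coefficient of variation over the 4 WT libraries had a median of 41.8% in the members against 12.8% in the WT-expressed models, and 32 members had a lowest WT library less than 1.5 times the highest mutant library. In 40 members WT replicates 2 and 3 were the highest of their genotype, an order that 31.7% of the WT-expressed models shared. This grouping was made after the values were seen. Their median level was 64.0% and 46.8% of the own WT mean in WT replicates 1 and 4, and 122% and 161% in replicates 2 and 3. The other 33 had medians of 103%, 98.4%, 94.8% and 101%, but single genes ranged from 62.1% to 198%, 54.3% to 155%, 36.9% to 182% and 33.97% to 174% in WT replicates 1 to 4. Among them were genes as variable in WT as the MADS-box gene TraesCS2B01G200800, with a coefficient of variation of 58.6%.

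The order of libraries also differed between these members in the mutants. *phyB*-null replicate 1 was the highest of its genotype in 37 of the 40 members and in 10 of the other 33, against 49.8% of the WT-expressed models and 63.8% of those models with the same WT order. *phyC*-null replicate 2 was the highest in 30 of the 40 and in 7 of the 33, against 18.6% and 22.3%. On CPM with TMM factors, a scaling chosen after seeing the data, WT replicates 2 and 3 were highest in 34 members, against 21.4% of the WT-expressed models. On that scale *phyB*-null replicate 1 was highest in 37 of the 40 and 8 of the 33, against 31.1%, and *phyC*-null replicate 2 in 28 and 4, against 15.3%. In the 40, *phyB*-null replicates 1 to 4 stood at medians of 26.8%, 1.05%, 5.10% and 11.9% of the WT mean, and *phyC*-null replicates 1 to 4 at 24.7%, 28.5%, 11.5% and 7.46%. The 33 stood between 5.87% and 8.68% in *phyB*-null and between 8.59% and 16.7% in *phyC*-null.

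Examples of the 40 were abundant genes. TraesCS1A01G270900, a putative transmembrane protein with a DUF1218 domain, was at 54.1, 133, 142 and 44.2 TPM in WT, at 32.4, 0.954, 7.78 and 12.5 in *phyB*-null, and at 26.6, 32.1, 20.0 and 14.6 in *phyC*-null. TraesCS5B01G063700, with no description, was at 65.5, 75.0, 74.4 and 17.1 TPM in WT, 12.5, 0.285, 2.19 and 2.68 in *phyB*-null, and 12.5, 13.3, 2.87 and 2.48 in *phyC*-null. In both, the *phyB*-null libraries alone spanned more than 10-fold.

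TraesCS5B01G098900, also undescribed, was at 34.5, 60.5, 118 and 55.1 TPM in WT, 21.6, 1.33, 9.90 and 13.0 in *phyB*-null, and 13.6, 19.7, 14.2 and 4.998 in *phyC*-null. The WRKY gene TraesCS3A01G209800 and the 6B run had this order too. Of the 9 WRKY genes that are in the study's tables and are not members, WT replicates 2 and 3 were highest in all 9. In these WRKY genes *phyB*-null replicate 1 was highest in 6 and *phyC*-null replicate 2 in 8. For 12 flowering genes that the study names, these 3 numbers were 4, 7 and 9. The shares of the WT-expressed models were 31.7%, 49.8% and 18.6%. The MADS-box gene and both bZIP genes had the opposite order, with WT replicates 1 and 4 highest. In all, 9 of the 73 members had it, against 9.73% of the WT-expressed models. Each genotype was sequenced on 2 lanes with 2 replicates on each, but the sources do not name the lane of a library, so its part in these orders was not tested.

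**Figure D4:**
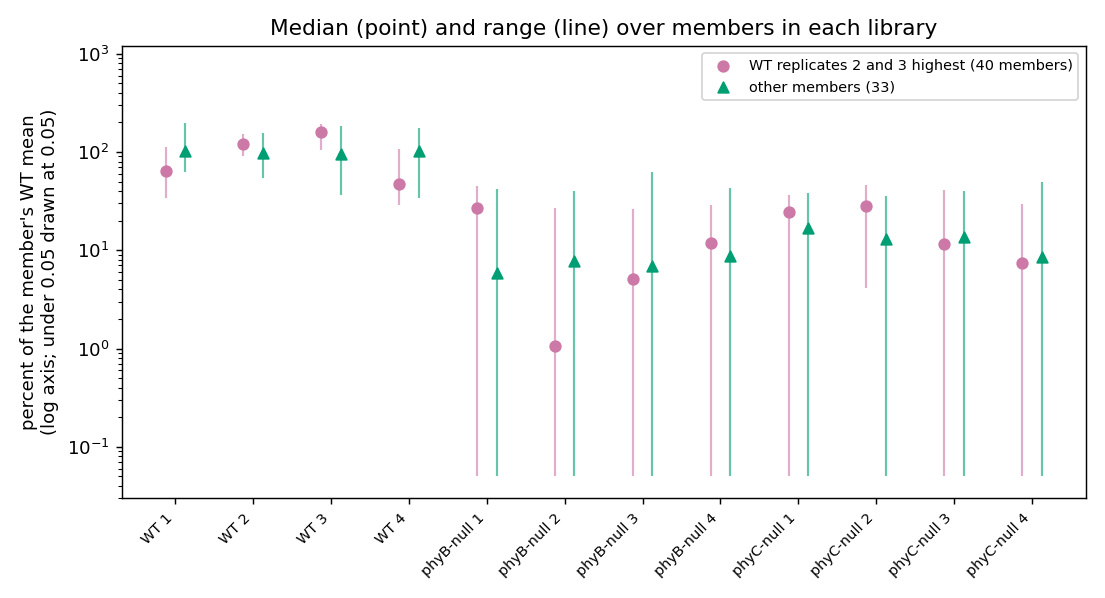
Level of the members in each of the 12 libraries as a percent of the member's own WT mean (y axis, log scale), as the median (point) and the range (line) over the 40 members with WT replicates 2 and 3 highest (circles) and the other 33 (triangles). Circles run from 46.8% to 161% among WT libraries and from 1.05% to 28.5% among mutant libraries, while triangle medians lie between 94.8% and 103% in WT, with ranges from 33.97% to 198%, and between 5.87% and 16.7% in the mutants.

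The depth of loss in these groups is given as counts, with no test. Of the 40, 28 had a lowest WT library under 1.5 times the highest mutant library and 2 were at least 10-fold below WT in both mutants. In the 33, the median ratio of the lowest WT to the highest mutant library was 2.39 and 8 members were at least 10-fold below WT in both. Only 6 of the 40 had a description, against 17 of the 33.

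Each WT comparison was also fitted on counts by the quasi-likelihood method of edgeR, adjusting p-values after Benjamini and Hochberg over all 72120 features and a call at an adjusted p below 0.01. Between WT and *phyB*-null, 63 members were called, all higher in WT, where 5.95% of all features were called higher in WT. Between WT and *phyC*-null, 30 members were called, all higher in WT, where 0.374% of all features were. These contrasts chose the members, so nothing is read from either count. The 43 members not called against *phyC*-null included 32 of the 40 genes with WT replicates 2 and 3 highest.

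The direct comparison of the mutants was a test, since the rule capped both mutant means but did not use their difference. Both bZIP genes and the LEA gene TraesCS3A01G396100 had lower levels in *phyB*-null plants than in *phyC*-null plants. No other member passed an adjusted p below 0.01 in edgeR's quasi-likelihood test. This makes 3 of 73 members (4.11%), all lower in *phyB*-null, where 3.41% of all features were called, 2.02% lower and 1.4% higher in *phyB*-null. Among WT-expressed models 5.38% were called and 3.35% were lower in *phyB*-null.

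For TraesCS5B01G059200 the *phyB*-null level was 10.1-fold below the *phyC*-null level, a log2 difference of -3.34 (SE 0.26, adjusted p = 4.5e-05). For TraesCS5A01G057500 it was 5.70-fold below, a log2 difference of -2.51 (SE 0.30, adjusted p = 0.00057). These differences stand on 862 and 9980 reads for the 5B gene and 1783 and 11522 reads for the 5A gene in *phyB*-null and *phyC*-null.

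The LEA gene TraesCS3A01G396100, of a family known for protecting proteins and membranes during drying, was at 23.005, 37.4, 22.6 and 13.4 TPM in WT. In *phyB*-null it was at 0.810, 0.215, 0.283 and 0.482 TPM, and in *phyC*-null at 4.77, 6.98, 3.18 and 1.78 TPM. The mutants did not overlap, and *phyB*-null was lower by 9.40-fold, with a log2 difference of -3.23 (SE 0.47, adjusted p = 0.0020 in edgeR). Without *phyB*-null replicate 3 the adjusted p was 0.012, and with limma on log2(TPM + 1) and log2(TPM + 0.1) it was 0.024 and 0.013, so the call was lost in these 3 settings and kept in the other 13.

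At an adjusted p below 0.05 another 4 members joined them. The glutaredoxin TraesCS3A01G462900 (log2 difference -1.85, adjusted p = 0.027), the dentin sialophosphoprotein-related gene TraesCS1A01G076900 (-1.06, adjusted p = 0.013) and the acetylglutamate kinase gene TraesCS7A01G263600 (-2.88, adjusted p = 0.021), whose enzyme acts in arginine synthesis, were lower in *phyB*-null. TraesCS2A01G364900 was higher in *phyB*-null (7.58, adjusted p = 0.018), with 1 read in *phyC*-null. Most of its *phyB*-null level came from replicate 3 at 6.75 TPM. Replicates 1, 2 and 4 were at 0.270, 0.873 and 0.124 TPM, also above every *phyC*-null library. These same 4 were called at 0.01 with DESeq2 and with all 12 libraries in one fit. No member was called higher in *phyB*-null in the main edgeR test, where 2 had an unadjusted p below 0.05 in that direction and 12 in the other.

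Counted by libraries, 7 members (each of the 3 called, the 3 lower ones just named, and TraesCS4B01G056300, described as a lariat debranching enzyme of intron turnover) had every *phyB*-null library below every *phyC*-null library. Among the WT-expressed models 7.58% had that order. The reverse order held for TraesCS2A01G364900 alone, against 8.75% of the WT-expressed models. TraesCS4B01G056300 had 2 reads over *phyB*-null and 35 over *phyC*-null.

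The median log2 difference over the 73 members was -0.58, with 58 of them lower in *phyB*-null, against -0.04 and 53.3% over all features and 0.01 and 49.0% over the WT-expressed models. The rule capped both mutant means, so the members are not a like sample of these sets. Many members also share an order of libraries and are not independent, so nothing is read from this count. Without *phyB*-null replicate 1 the median was -1.18, and without *phyB*-null replicate 3 it was -0.37, the ends of the range over left-out libraries. An approximate 95% interval of the log2 difference was built from the edgeR estimate and its SE, and is somewhat wider than edgeR's test implies. For the 70 members not called, it reached 1.60 to either side in the median and passed 1 in size in 68 of them. Nearly all of these intervals thus included differences of more than 2-fold between the mutants, and the power to detect such a difference was not computed.

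**Figure D5:**
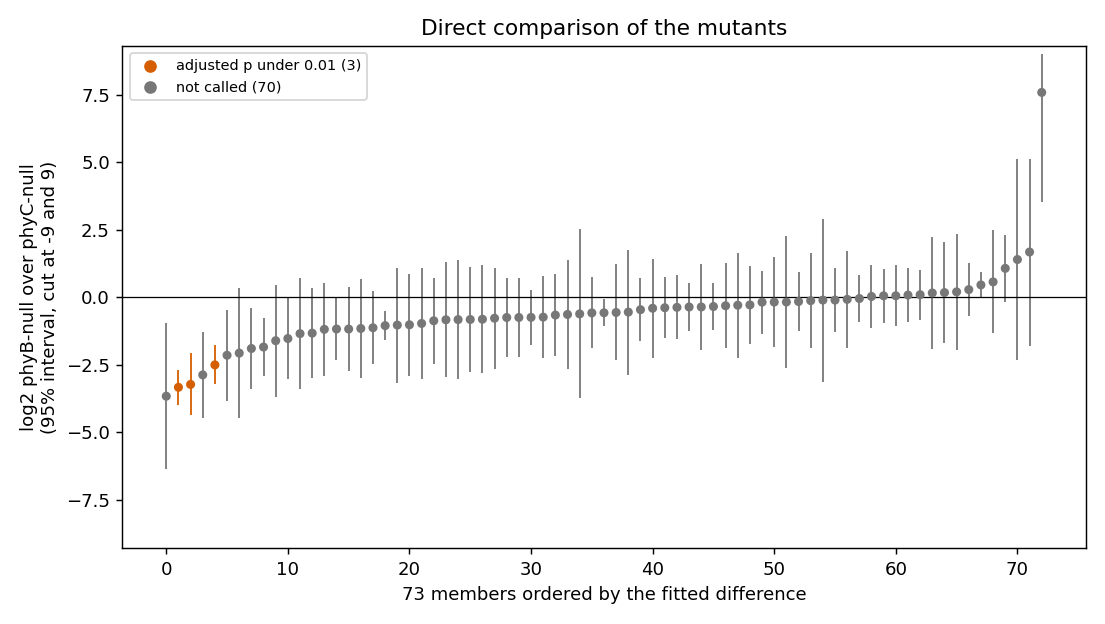
Log2 difference of *phyB*-null over *phyC*-null (y axis) for the 73 members in order of the difference (x axis). Each has an approximate 95% interval built from the edgeR estimate and its SE, drawn within the axis limits and somewhat wider than edgeR's test implies. The 3 called members, in orange, lie at -3.34, -3.23 and -2.51, and most grey intervals cross 0.

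At the edge of the rule, the last members inside had a higher mutant mean of 24.9% (TraesCS2B01G024500) and 25.0% (TraesCS5A01G268400 and TraesCS1A01G270900) of the WT mean. The first genes outside were TraesCS7A01G158600 at 25.7%, TraesCS7A01G549000 at 26.0% and TraesCS3B01G228100 at 26.4%. TraesCS7A01G158600 had means of 21.2 TPM in WT, 0.0293 in *phyB*-null and 5.45 in *phyC*-null, so it was set aside by *phyC*-null alone.

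Genes of the flowering pathway that the study names are not members by construction, and since the study chose them on these samples their counts are a description. Of 12 such genes (*FT*, *VRN1*, *FUL* and *PPD1* copies and a *CONSTANS*-like gene), 12 were called higher in WT than in *phyB*-null and 10 higher in WT than in *phyC*-null, with median log2 differences of 5.55 and 4.67, and none was called between the mutants. In that last comparison, their median log2 difference was -0.38. Of the 9 WRKY genes, 8 and 1 were called higher in WT, with medians of 2.39 and 1.47, and none between the mutants. These counts come from the edgeR test used here alone. The study lists all of these flowering and WRKY genes as regulated by both receptors in SD. It required an adjusted p below 0.01 in both DESeq2 and edgeR, a stricter demand than edgeR alone, yet it called more of them. The cause of this difference was not tested. *FUL-A3*, listed as TaAP1-A2, had means of 10.4 TPM in WT, 0.0296 in *phyB*-null and 0.0281 in *phyC*-null, beside its B-genome counterpart by name, the member TraesCS2B01G200800.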

How the data were processed

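RNA-seq libraries were made from 12 leaf samples. Per the labels and the paper, the authors aligned trimmed single-end reads to the IWGSC RefSeq v1.0 genome by GSNAP, then used htseq-count on reads with a unique position. Its strand setting is not given in the sources used here. The authors deposited raw counts (72120 features) and TPM (190459 models). Members and gene lists were chosen with earlier results of these data known. TPM means and SDs are over 4 libraries. Counts were tested in R 4.3.3 with edgeR 4.0.16 (TMM, quasi-likelihood, no filter, only the 8 libraries compared), with DESeq2 1.42.0 and limma 3.58.1 as alternatives. The edgeR test was also run on simulated counts, with an outcome not given here, while DESeq2 and limma were not. P-values weigh a difference between genotypes against the spread among the 4 samples per genotype, with that spread estimated partly from all genes. Named members were, per description class, up to 3 with the highest WT mean, the 5 highest WT means, the 5 largest ratios, the members called between the mutants, runs of neighbours, and 3 on either side of the threshold. Others are marked as chosen after their values were seen. Descriptions come from the study's tables. No source names a pairing by replicate number, and the main tests used none. Deviations of same-numbered libraries from their genotype means correlated between -0.53 and 0.55. No reference for unpaired samples was computed, so these values cannot show whether samples were paired. Long-day libraries were not used here.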

Additional observations from a re-analysis of the deposited data

Results flagged for a closer look

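Both bZIP genes and the LEA gene differed between the mutants, with lower levels in *phyB*-null, by edgeR's test of that difference, with log2 differences of -3.34 for TraesCS5B01G059200, -2.51 for TraesCS5A01G057500 and -3.23 for TraesCS3A01G396100, so their loss against WT differed in size between the mutants.

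Among 95 sets of 4 libraries of the 32 named members, 10 held a library far from the other 3. Chance alone flags about 1 in 20, and in 3 of the 10, given last, the other libraries were at 0, so that 1 to 3 reads set the distance. Nothing is read from the number. In *phyB*-null replicate 4, TraesCS5B01G049100 stood at 11.3 TPM against at most 2.99 in the others, its neighbour TraesCS5B01G049200 at 9.02 against at most 3.05, and the DnaJ gene TraesCS3A01G216800 at 1.92 against at most 0.730. In *phyC*-null replicate 2, TraesCS5B01G048600 of the same 5B run was low at 2.31 TPM, with 4.91 to 5.27 in the others. TraesCS5B01G063700 was low in WT replicate 4 at 17.1 TPM, with 65.5 to 75.0 in the others. The glutaredoxin TraesCS3A01G462900 was at 6.81 TPM in WT replicate 3, with 9.08 to 9.23 in the others. TraesCS5A01G016900 was at 1.75 TPM in WT replicate 1, with 2.93 to 3.16 in the others, and its only mutant reads were 3 in *phyB*-null replicate 3 (0.373 TPM) and 1 in *phyC*-null replicate 2 (0.126 TPM). TraesCS7B01G267700 had its 1 mutant read in *phyB*-null replicate 3 (0.223 TPM).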

How the results depend on the processing

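The rule found 116 genes with mutant means up to 0.33 of WT, 46 with 0.2, 40 with a WT mean of at least 5 TPM, 143 with libraries allowed to overlap and, on CPM with TMM factors, 60 (49 of them members). Leaving out 1 library gave 41 (WT replicate 3) to 171 (WT replicate 4), and 112 for *phyB*-null replicate 1. Members called between WT and *phyB*-null numbered 38 and 33 with limma on log2(TPM + 1) and log2(TPM + 0.1), and 42 to 70 over left-out libraries. Between WT and *phyC*-null, 63 were called at an adjusted p below 0.05, 65 with DESeq2, 54 with the replicate block, and 22 to 38 over left-out libraries. Between the mutants 7 were called at 0.05, with DESeq2 and with all 12 libraries in one fit, 4 with the replicate block, and 2 to 4 over left-out libraries. No source names a pairing of the samples by replicate number. The cause of these moves was not tested. On CPM with TMM factors, chosen after seeing the data, 34 members had WT replicates 2 and 3 highest.

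Of 32 named members, 12 had a log2 difference between the mutants that changed sign or, in TraesCS7B01G267700, fell to 0 in some setting. None of them was called. With the replicate block the difference became -0.21 for TraesCS5B01G049100, -0.16 for TraesCS5B01G049200 and -0.10 for TraesCS6B01G398300. With limma it was -0.18 and -0.25 (pseudocounts 1 and 0.1), -0.14 and -0.20, and, at 0.1, -0.12 in these genes, and by library size alone -0.0023 for TraesCS5B01G049200. Over left-out libraries it ran from -0.50 to 0.44 in TraesCS2B01G024500, -1.53 to 2.90 in TraesCS5A01G016900, -0.63 to 0.17 in TraesCS5A01G045000, -0.75 to 0.28 in TraesCS5B01G049100, -0.61 to 0.29 in TraesCS5B01G049200, -0.73 to 0.070 in TraesCS5B01G098900, -0.25 to 0.33 in TraesCS6A01G116900, -0.94 to 0.20 in TraesCS6B01G398100, -0.80 to 0.53 in TraesCS6B01G398300, -0.27 to 0.12 in TraesCS7B01G265700, 0 to 1.99 in TraesCS7B01G267700 and -0.30 to 0.35 in TraesCSU01G002200. Of the other values of named members, 454 kept direction and side of the threshold, 6 gained a call and 3 lost it.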
